A study of Mus musculus with 6 samples.

Results

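Chemokines and their receptors were followed in vascular smooth muscle cells with and without Nono, an RNA- and DNA-binding protein of nuclear paraspeckles. The 59 genes, out of 56393 in the deposited table, were all those whose mouse symbol has the form of the family: Ccl, Cxcl, Cx3cl or Xcl with a number for the ligands (38 genes), and Ccr, Cxcr or Cx3cr with a number or Ackr1 to Ackr4 for the receptors (21 genes). The pattern uses no expression value, but it was chosen with earlier results of these data known. RNA sequencing was done on cells labelled as primary mouse vascular smooth muscle, either knocked out for Nono (KO, 3 libraries) or wild type (WT, 3 libraries). Both groups were kept in serum-containing medium and received no other treatment. Strain, age and sex of the mice, the vessel and the way in which Nono was removed were not given in the sources used here. The study is about vascular calcification, and the comparison asks which transcripts differ between KO and WT cells. The labels do not say whether replicates come from different cultures or mice, so a p-value here reflects only how far these libraries vary, which may be technical.

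Library totals lay between 56529170 and 61670083 counts. Levels of 1 gene across libraries are given in CPM, the count relative to library size after scaling with TMM factors. Nono itself was at 502 to 523 CPM in WT and at 51.1 to 55.9 CPM in KO. The 4 Y-linked marker genes summed to 0 to 0.0795 CPM in WT and to 149.9 to 163.2 CPM in KO, so a difference in the sex of the cells cannot be told apart from the genotype in any result. Of 8 smooth muscle markers, 5 were higher and 2 lower in KO at an edgeR adjusted p of 0.05. Of all tested genes, 69.3% passed that threshold, which is the background for each marker count here. The smooth muscle list summed to 67.4 to 76.4 CPM in WT and 245 to 249 CPM in KO. The 5 higher genes were Acta2 (16.4 to 161 CPM), Smtn (47.8 to 58.1 CPM), Tagln, Cnn1 and Lmod1, and the 2 lower ones Myocd and Des. Myh11, the myosin that defines mature smooth muscle, averaged 0.466 CPM in WT and 0.219 in KO and was not called (edgeR adjusted p = 0.375). The labelled identity thus had little support from Myh11, whereas Acta2 and Smtn were present in both groups. The sum of 8 fibroblast markers was 1679.9 to 1866 CPM in WT and 17409 to 18760 CPM in KO, with 7 of them higher and Fbln1 3.69-fold lower. The 8 mesothelial and epithelial markers summed to 77.0 to 84.8 CPM in WT and 9.87 to 13.4 CPM in KO. Of the 4 tested, 2 were higher and 2 lower. Krt19 and Msln, which led the sum in WT, fell. The low genes Cdh1 and Wt1 rose, from 0.152 to 0.926 CPM and from 0.0544 to 2.03 CPM. The 10 endothelial markers summed to 41.2 to 47.4 CPM in WT and 141 to 144.5 CPM in KO. Eng rose 55.0-fold and the low gene Vwf rose from 0.151 to 0.945 CPM, while Pecam1, Kdr, Tek and Flt1 fell. The part of these lists in the results was not tested. In bulk RNA, fewer cells of a type and less RNA per cell cannot be told apart.

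Chemokines are small secreted proteins that guide migrating cells, above all leukocytes, along a gradient. They are grouped by the spacing of their first cysteines into CC, CXC, CX3C and C types, and they act on receptors that couple to inhibitory G proteins. Heparan sulfate on cells and matrix holds them in place, and atypical receptors take them up without G protein signalling. In the vessel wall, smooth muscle cells and fibroblasts are known sources of chemokines for monocytes and neutrophils, whereas most classical receptors are carried by the leukocytes.

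Most of the expressed ligands differed between KO and WT, and more of them were higher than lower in KO. The genes that rose included Cxcl12, the neutrophil attractants Cxcl1 and Cxcl5, the monocyte attractants Ccl2 and Ccl7, and the membrane-anchored ligands Cxcl16 and Cx3cl1. Those that fell included Ccl5, Cxcl10 and Cxcl11. Of the 59 genes, 27 passed the filter on low counts and were tested, 20 ligands and 7 receptors. Of these 27, 15 were higher and 6 lower in KO at an adjusted p of 0.05 (edgeR quasi-likelihood test, adjusted over all 18732 tested genes). Over all tested genes 69.3% were called, 35.1% as higher and 34.2% as lower. At least 2-fold differences were called in 19 of the 27, against 41.4% of all tested genes. The 3 values of each genotype did not overlap in 22 of the 27, against 75.5% of all tested genes. The median log2 fold change of the 27 was 1.78, and that of all tested genes 0.03. Genes that pass the filter through 1 group alone are selected toward a difference between the groups. These shares therefore describe the tested genes and do not speak for all 59.

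**Figure D1:**
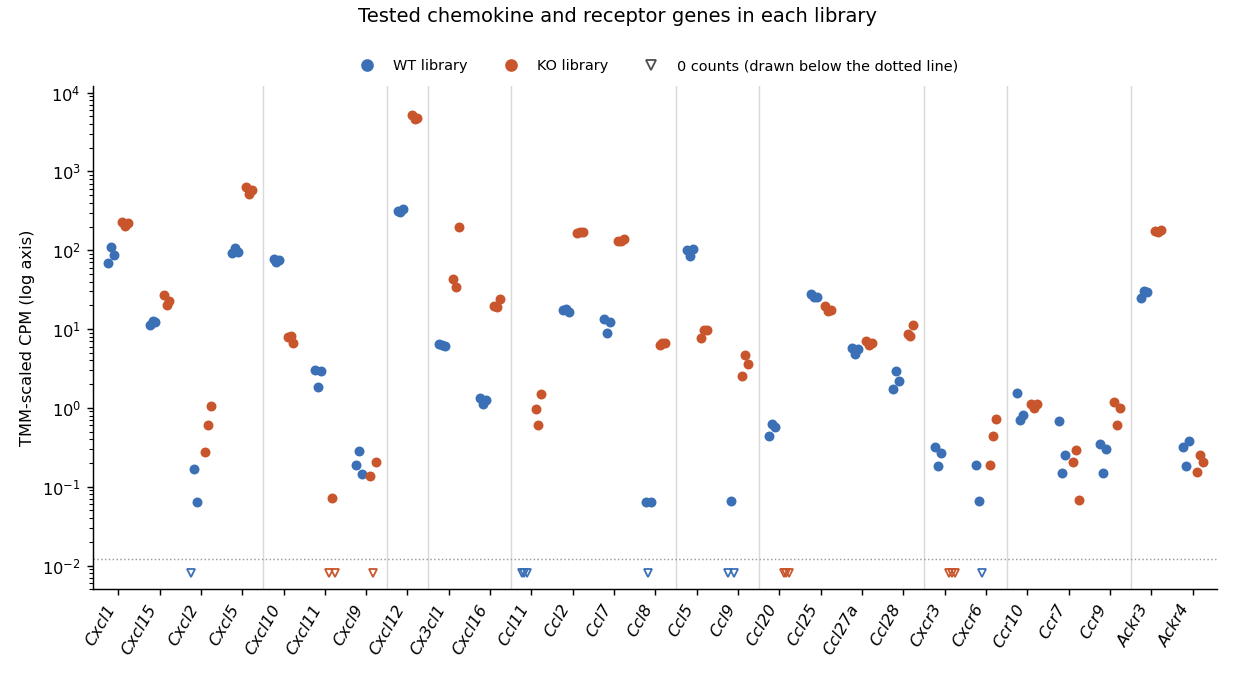
TMM-scaled CPM (log axis) of the 27 tested chemokine and receptor genes, 1 point per library, WT in blue and KO in orange, ordered by role with grey lines between roles; open triangles below the dotted line are libraries with 0 counts. Cxcl12 lies at 302 to 332 CPM in WT and 4634 to 5146 CPM in KO, and KO replicate 3 stands apart from the other KO libraries at Cx3cl1.

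The other 32 genes were near or at 0. None exceeded 20 counts, or 0.317 CPM, in a library. At 0 counts in all 6 libraries were 8 ligands, Ccl3, Ccl12, Ccl21a, Ccl21b, Ccl22, Ccl24, Ccl26 and Xcl1, and 6 receptors, Cxcr1, Cxcr2, Cxcr4, Ccr3, Ccr4 and Ackr1. A count of 0 over a group allows up to 3 counts, equal to 0.0161 CPM over WT and 0.0174 CPM over KO. These limits cover counting error only. The remaining 18 had at least 1 count in a library and were not tested. Among them, Cxcl14 had 8, 8 and 0 counts in KO and 0 in WT. Cxcl3 had 5, 5 and 16 counts in WT and 9, 0 and 0 in KO. Ackr2, a scavenger of inflammatory CC chemokines, had 20, 0 and 9 counts in WT and 5, 0 and 0 in KO.

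Cxcl12 had the highest FPKM of all members in KO. This ligand, also called stromal cell-derived factor, holds haematopoietic and progenitor cells in their niches through Cxcr4. It was at 312, 302 and 332 CPM in the WT libraries and at 5146, 4634 and 4832 CPM in the KO libraries. Every KO library thus lay far above every WT library. KO exceeded WT 15.4-fold (log2 fold change 3.95 ± 0.06 SE, edgeR adjusted p = 1.19e-09). Ackr3, the atypical receptor that takes up CXCL12 and signals through arrestins, rose along with it. It was at 24.7, 30.3 and 29.8 CPM in WT and at 174.5, 171.6 and 178.5 CPM in KO, higher by 6.18-fold (log2 fold change 2.63 ± 0.08 SE, edgeR adjusted p = 4.11e-08). Cxcr4, the classical receptor of the same ligand, had 0 counts in every library.

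The neutrophil attractants of the ELR type, named after a short motif ahead of the first cysteines, were higher in KO. All 4 that were tested rose, and the fifth, Cxcl3, was not tested. Cxcl5 was at 91.2, 108.4 and 93.8 CPM in WT and at 636, 521 and 586 CPM in KO. Its groups lay far apart, 5.94-fold (log2 fold change 2.57 ± 0.09 SE, edgeR adjusted p = 1.17e-07). Cxcl1, the mouse gene often called KC, was at 69.8, 110.0 and 85.999 CPM in WT and at 228, 201 and 223 CPM in KO. The WT libraries of Cxcl1 spread more than those of Cxcl5, but the lowest KO library still lay above the highest WT library (2.45-fold, log2 fold change 1.296 ± 0.16 SE, edgeR adjusted p = 0.000405). Cxcl15, best known from the lung, was at 11.3, 12.5 and 12.4 CPM in WT and at 26.7, 20.4 and 22.4 CPM in KO, a 1.92-fold difference. Cxcl2, or MIP-2, was a low gene, with 0, 10 and 4 counts in WT and 16, 33 and 62 counts in KO. It was 8.24-fold higher in KO (edgeR adjusted p = 0.0229). That call was lost without KO replicate 2 (adjusted p = 0.0515), KO replicate 3 (0.0999) or WT replicate 3 (0.0709), and the fold was 19.0 without WT replicate 2.

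Promoter sequence was available for 44 of the 59 genes, from RefSeq on build GRCm38.p6. The 250 bases before the start were searched on both strands for 3 sets of letters. The NF-kB-like set (GGGA, any 2 bases, TTCC) was in 6 of the 44 promoters, and in 1.36% of the 27025 genes with a promoter in that table. NF-kB is the transcription factor best known for switching on inflammatory chemokines. Cxcl1, Cxcl2 and Cxcl3 are shown because their promoters share a run in which matches on both strands overlap, printed in capitals. They lie on the plus strand at chr5:90890995-90891244, chr5:90903649-90903898 and chr5:90785851-90786100.
Cxcl1: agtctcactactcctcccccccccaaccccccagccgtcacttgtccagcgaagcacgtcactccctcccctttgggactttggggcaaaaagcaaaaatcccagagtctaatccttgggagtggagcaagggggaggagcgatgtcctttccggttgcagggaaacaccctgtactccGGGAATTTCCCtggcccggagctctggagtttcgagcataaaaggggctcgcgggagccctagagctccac
Cxcl2: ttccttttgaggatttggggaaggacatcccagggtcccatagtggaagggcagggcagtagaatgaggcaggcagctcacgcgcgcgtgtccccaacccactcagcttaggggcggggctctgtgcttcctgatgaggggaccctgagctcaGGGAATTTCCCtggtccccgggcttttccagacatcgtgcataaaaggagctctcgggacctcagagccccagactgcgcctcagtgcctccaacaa
Cxcl3: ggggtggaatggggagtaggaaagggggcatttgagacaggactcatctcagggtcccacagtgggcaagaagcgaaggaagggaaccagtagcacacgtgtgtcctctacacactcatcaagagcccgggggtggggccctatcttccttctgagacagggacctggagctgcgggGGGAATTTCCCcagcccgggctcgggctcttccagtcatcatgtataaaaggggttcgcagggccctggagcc
Cxcl1 averaged 175 FPKM in KO, Cxcl2 0.424 FPKM and Cxcl3 0.0108 FPKM. The same letters in the promoter thus went with very different levels in these cells. A match is a description of the letters, not evidence of a bound site.

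The ligands of Cxcr3, the receptor of activated T cells and natural killer cells, were lower in KO. These are the interferon-inducible chemokines, and 2 of the 3 fell. Cxcl10 was at 76.9, 71.3 and 76.0 CPM in WT and at 7.96, 8.27 and 6.75 CPM in KO. The highest KO library was thus far under the lowest WT library, 9.76-fold lower on average (log2 fold change -3.29 ± 0.10 SE, edgeR adjusted p = 2.42e-08). Cxcl11 was at 3.03, 1.83 and 2.97 CPM in WT, and in KO it was counted in replicate 2 alone, with 4 counts. It was 103-fold lower by the fit (edgeR adjusted p = 9.48e-05). Without KO replicate 2 it was at least 102-fold lower, with 3 counts over the remaining KO libraries as the floor. Cxcl9, the member most tightly tied to interferon-gamma, was at 0.190, 0.283 and 0.143 CPM in WT and at 0.136, 0 and 0.204 CPM in KO. Its groups overlapped, with an edgeR adjusted p of 0.469. Cxcr3 itself had 20, 11 and 17 counts in WT and 0 in all KO libraries, at least 14.8-fold lower (edgeR adjusted p = 0.00289).

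The Cxcl10 promoter is shown because it was the only one of the 44 to hold all 3 of the searched sets of letters. It lies on the minus strand at chr5:92348890-92349139. Its capitals mark, in order, the interferon-response-like set (GAAA, any 2 bases, GAAA), the NF-kB-like set and the AP-1-like TGANTCA. The Cxcl12 promoter, on the plus strand at chr6:117168285-117168534, is shown beside it as that of the member with the highest FPKM in KO, and it holds none of them.
Cxcl10: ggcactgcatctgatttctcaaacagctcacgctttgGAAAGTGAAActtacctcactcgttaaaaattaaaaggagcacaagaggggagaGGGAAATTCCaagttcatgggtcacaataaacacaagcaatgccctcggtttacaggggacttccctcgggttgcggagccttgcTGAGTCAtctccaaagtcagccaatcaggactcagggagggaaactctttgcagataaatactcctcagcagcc
Cxcl12: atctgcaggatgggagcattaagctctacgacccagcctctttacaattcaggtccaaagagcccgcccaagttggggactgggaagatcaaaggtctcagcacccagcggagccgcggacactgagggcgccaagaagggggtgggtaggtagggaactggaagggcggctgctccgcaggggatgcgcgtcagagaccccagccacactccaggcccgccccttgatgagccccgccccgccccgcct
The interferon-response-like letters were in 3 of the 44 promoters and in 3.46% of all genes of the table, and the AP-1-like letters in 6 of the 44 and in 7.82%. The absence of a match says only that these letters are not in this window.

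Both membrane-anchored ligands were higher in KO. These ligands sit on a stalk and act as adhesion molecules until a protease sheds them. Cxcl16 was at 1.35, 1.13 and 1.27 CPM in WT and at 19.5, 19.2 and 23.9 CPM in KO. The groups were far apart, at 16.6-fold (log2 fold change 4.06 ± 0.15 SE, edgeR adjusted p = 7.99e-08). In GENCODE M21 its exons share 552 bases (18.3%) with exons of Zmynd15 on the other strand, whose counts were 49 to 65 in WT and 184 to 251 in KO, and reads of both may not be separable. Cx3cl1, or fractalkine, was at 6.49, 6.28 and 6.15 CPM in WT and at 43.4, 34.0 and 195.2 CPM in KO. All KO libraries were above WT, but replicate 3 stood far above replicates 1 and 2. Over all libraries Cx3cl1 was 14.4-fold higher, with a log2 fold change of 3.85 ± 0.85 (SE) and an edgeR adjusted p of 0.0119. Without KO replicate 3 the difference was 6.14-fold (edgeR adjusted p = 2.53e-06). The call was lost with limma-voom (adjusted p = 0.0858) and without WT replicate 1, 2 or 3 (edgeR adjusted p = 0.0548 to 0.0594).

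The monocyte chemoattractants and the related eotaxin were higher in KO. All 4 tested genes of this group rose, whereas Ccl12, Ccl24 and Ccl26 had 0 counts throughout. Ccl2, which draws monocytes through Ccr2, was at 17.7, 17.9 and 16.4 CPM in WT and at 163, 170.2 and 169.9 CPM in KO. The libraries of each genotype were close together and the genotypes far apart (9.67-fold, log2 fold change 3.27 ± 0.06 SE, edgeR adjusted p = 2.81e-09). Ccl7, a further Ccr2 ligand, was at 13.3, 8.85 and 12.2 CPM in WT and at 129.9, 129.7 and 139 CPM in KO. Again no KO library came near WT (11.6-fold, log2 fold change 3.54 ± 0.15 SE, edgeR adjusted p = 3.76e-07). Ccl8 had 4, 0 and 4 counts in WT and 369, 361 and 398 in KO, a 145-fold difference (edgeR adjusted p = 2.47e-06). Ccl11, eotaxin, which attracts eosinophils, had 0 counts in WT and 56, 33 and 89 in KO, at least 63.3-fold higher (edgeR adjusted p = 0.000329).

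Ccl5 and Ccl9, both attractants in the MIP and RANTES group, went in opposite directions. Ccl5, or RANTES, which draws T cells and monocytes, was at 100.6, 83.4 and 103 CPM in WT and at 7.70, 9.85 and 9.75 CPM in KO. No KO library came near the WT range, and the mean was 10.5-fold lower (log2 fold change -3.40 ± 0.13 SE, edgeR adjusted p = 1.01e-07). Ccl9, known mainly from myeloid cells, had 149, 260 and 210 counts in KO, while WT held 4 counts, all of them in replicate 2. By the fit Ccl9 was 152-fold higher in KO (edgeR adjusted p = 4.88e-05). Without WT replicate 2 it was at least 152-fold higher, taking 3 counts over the remaining WT libraries as the floor. Ccl1, Ccl3, Ccl4 and Ccl6, the rest of the group, had at most 4 counts in a library.

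**Figure D2:**
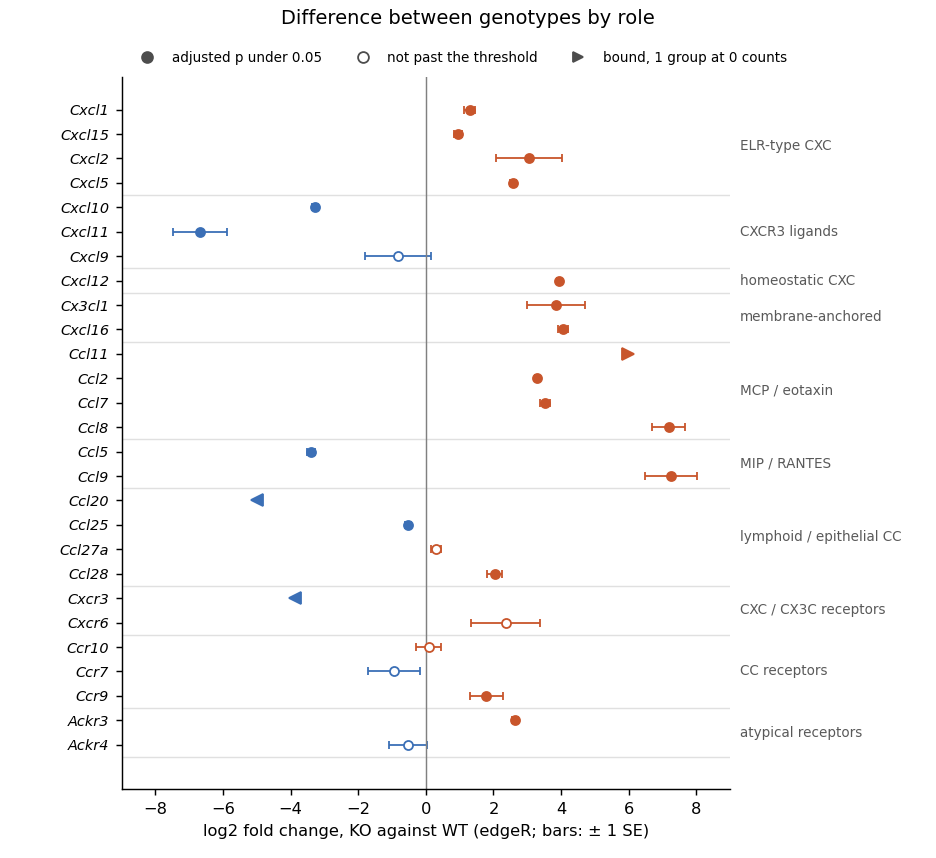
Log2 fold change of KO against WT for the 27 tested genes by role, with bars of 1 SE; filled points passed an adjusted p of 0.05, open points did not, and triangles are bounds for the 3 genes with 1 genotype at 0 counts. All 4 tested ELR-type and all 4 tested MCP and eotaxin ligands lie to the right of 0, and the 3 Cxcr3 ligands to the left, Cxcl9 as an open point.

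The ligands of lymphoid and epithelial tissues were mixed. Ccl28, a ligand of Ccr10 known from mucosal epithelium, was at 1.73, 2.90 and 2.21 CPM in WT and at 8.69, 8.25 and 11.1 CPM in KO. It rose 4.11-fold (edgeR adjusted p = 6.01e-05). Ccl20, the ligand of Ccr6, had 28, 38 and 36 counts in WT and 0 in KO, at least 31.6-fold lower (edgeR adjusted p = 0.000572). Ccl25, the Ccr9 ligand of thymus and gut, was at 27.5, 25.6 and 25.3 CPM in WT and at 19.5, 16.9 and 17.5 CPM in KO. Its groups did not overlap, and the difference in counts was 1.46-fold (edgeR adjusted p = 0.000706). In the deposited FPKM the gap was wider, with Ccl25 at 18.3 on average in WT and 8.64 in KO. Its exons share 204 bases (2.74%) with exons of Elavl1 on the other strand, whose counts were 8538 to 9074 in WT and 3882 to 4143 in KO. Ccl27a was at 4.88 to 5.78 CPM in WT and at 6.20 to 7.09 CPM in KO. These ranges did not overlap, but Ccl27a missed the threshold (log2 fold change 0.30 ± 0.14 SE, edgeR adjusted p = 0.0892). From the deposited FPKM it passed (limma adjusted p = 0.0474 to 0.0489). Ccl27b, a close copy of it, had at most 3 counts in a library, and the way reads were split between such copies was not given in the sources used here.

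The receptors were far scarcer than the ligands, apart from Ackr3. The 20 receptors without Ackr3 had 104 to 253 counts in a WT library and 160 to 198 in a KO library, or 1.73 to 4.01 and 2.91 to 3.36 CPM, ranges that overlapped. Besides Cxcr3, which fell, and Ackr3, 1 receptor passed the test. Ccr9 had 22, 9 and 19 counts in WT and 69, 33 and 59 in KO (3.45-fold higher, edgeR adjusted p = 0.0105). Of its exon bases 18.8% are shared with an unnamed transcript on the other strand. That transcript had 4, 0 and 0 counts in WT and 2, 50 and 21 in KO, and reads of both may not be separable. Ccr10, the receptor of skin-homing T cells, was at 1.54, 0.700 and 0.811 CPM in WT and at 1.11, 0.9997 and 1.14 CPM in KO. Its groups overlapped (edgeR adjusted p = 0.843). Cxcr6 had 12, 4 and 0 counts in WT and 11, 24 and 43 in KO, with overlapping CPM and an adjusted p of 0.0682 in edgeR. It passed without WT replicate 1 (adjusted p = 0.0327), with limma-voom (0.0401) and from log2(FPKM + 0.1) (0.0392). Ccr7 (edgeR adjusted p = 0.307) and the atypical receptor Ackr4 (edgeR adjusted p = 0.431) overlapped between the genotypes as well, at under 0.7 CPM in each library.

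The markers of leukocytes, the cells that carry most of these receptors, were largely at 0. Of 20 macrophage and leukocyte markers, 11 had 0 counts in all libraries, among them Ptprc (the pan-leukocyte antigen CD45), Adgre1, Itgam, Tyrobp, Cd3e and Csf3r. The list summed to 75.1 to 86.4 CPM in WT and to 75.0 to 90.5 CPM in KO, ranges that overlap. Most of that sum came from Cd14 (11.9 to 13.1 CPM in WT, 67.3 to 81.6 in KO) and from Cd74 (51.2 to 64.1 CPM in WT, 1.82 to 3.19 in KO), which cells other than leukocytes can express. Of the list, 6 genes were tested, 3 rose and 2 fell, beside the 69.3% of all tested genes that were called. Lyz2, the lysozyme of myeloid cells, fell from 8.14 to 9.12 CPM in WT to 0.136 to 0.356 CPM in KO, whereas Csf1r, a receptor of macrophages, rose from 0.0636 to 0.206 CPM in WT to 2.73 to 3.66 CPM in KO. Cd68, a lysosomal protein of macrophages, rose 2.06-fold. The part of these markers in the results above was not tested.

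Levels of different genes can be set side by side only per length, for which the deposited FPKM were used. The FPKM of the 38 ligands summed to 488 to 508 in the WT libraries and to 1908.9 to 2104 in the KO libraries. In WT, Ccl5 came first in every library with 28.7 to 34.8% of that sum. Cxcl1 (78.3 ± 18.6 FPKM, SD, n = 3), Cxcl12 (71.9 ± 2.57), Cxcl10 (61.4 ± 1.72) and Cxcl5 (55.6 ± 6.001) followed it, and the spread of Cxcl1 covered its neighbours in this order. In KO, Cxcl12 alone made up 54.8 to 57.2% of the ligand FPKM, against 14.0 to 14.7% in WT. Cxcl5 (307 ± 29.1 FPKM, SD, n = 3), Cxcl1 (175 ± 10.7) and Ccl2 (169 ± 4.84) came next, and Cxcl1 and Ccl2 did not differ beyond their spread. Ccl7 stood at 139 ± 5.72 FPKM. Ccl5 made up only 0.562 to 0.815% of the ligand FPKM in KO.

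**Figure D3:**
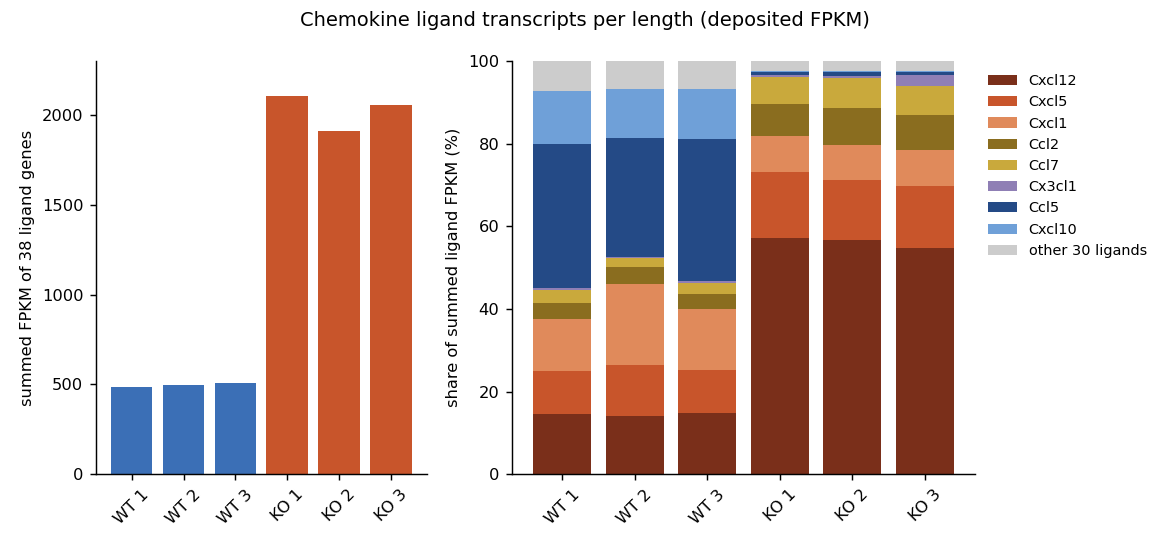
Left, summed deposited FPKM of the 38 ligand genes in each library; right, the share of 8 ligands and of the other 30 together in that sum (%). Ccl5 takes the largest share in each WT library (28.7 to 34.8%) and Cxcl12 in each KO library (54.8 to 57.2%).

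In most axes the ligands were far above the receptors per length. The 4 ligands Cxcl1, Cxcl2, Cxcl3 and Cxcl5 of Cxcr1 and Cxcr2 summed to 112 to 161 FPKM in WT and 440.3 to 518 FPKM in KO, with both receptors at 0 counts. Ccl2, Ccl7 and Ccl12 summed to 30.6 to 34.5 FPKM in WT and 299 to 317 FPKM in KO, and their receptor Ccr2 had 4 counts in KO replicate 1 and 0 elsewhere. Cx3cr1, the receptor of Cx3cl1, had 7, 2 and 0 counts in WT and 0 in KO. Ccr1, a receptor of Ccl5, had 0, 5 and 0 counts in WT and 5, 9 and 5 in KO. The axes of Ccr10 and Ccr9 had counts on both sides in every library. Ccr10 had 42 to 97 counts, with its ligands Ccl27a, Ccl27b and Ccl28 at 7.44 to 11.6 FPKM in sum. Ccr9 had 9 to 69 counts, with Ccl25 at 17.7 to 19.3 FPKM in WT and 8.04 to 9.31 FPKM in KO. Cxcr3, with 11 to 20 counts in WT and 0 in KO, stood beside ligands at 60.7 to 64.7 FPKM in WT and 5.02 to 6.47 FPKM in KO. Among the receptors only Ackr3, the partner of Cxcl12, exceeded 1 FPKM, at 8.78 ± 0.94 FPKM in WT and 50.7 ± 0.48 FPKM in KO (SD, n = 3 each).

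**Figure D4:**
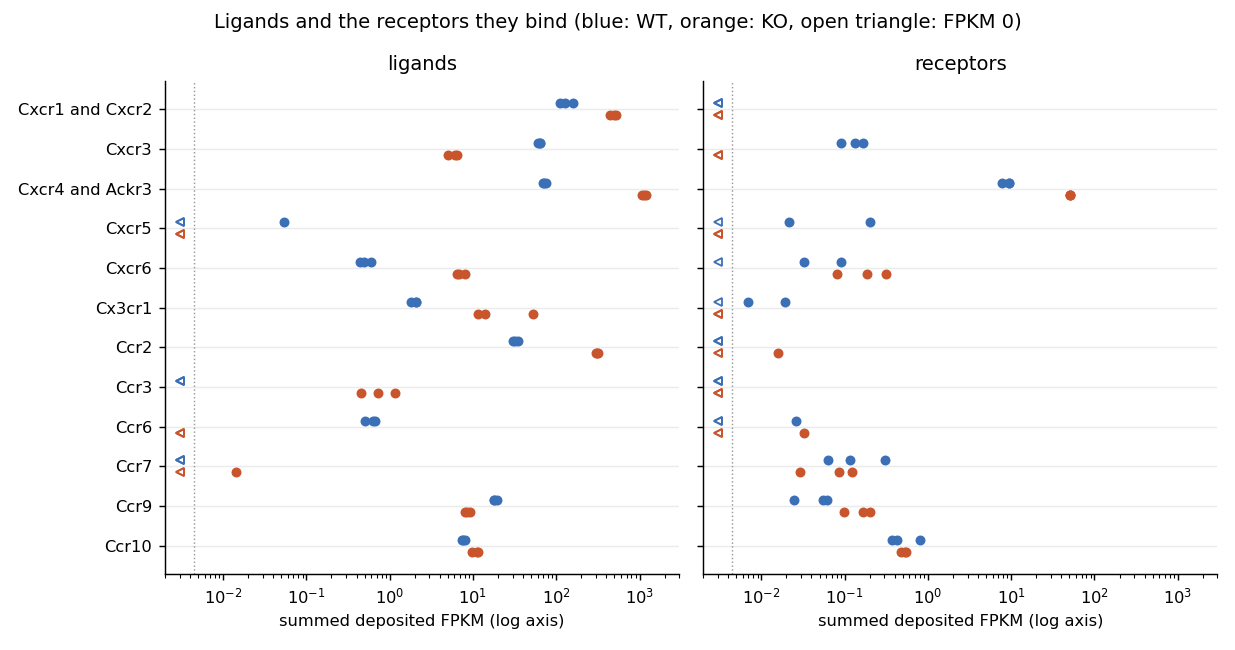
Summed deposited FPKM (log axis) of the ligands (left) and the receptors (right) of 12 axes, 1 point per library, WT in blue and KO in orange; open triangles left of the dotted line are at 0. Cxcl12 averages 1138 FPKM in KO, whereas among the receptors Ackr3 alone passes 1 FPKM.

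Many chemokine genes arose by duplication and still lie side by side, and 35 of the 59 fell into 9 clusters in which neighbours had at most 2 other protein-coding genes between them (gene order from GENCODE M21). Called genes went in opposite directions in 1 cluster and in 1 direction in each of the others that held several. In the first cluster on chromosome 11, in the order Ccl2, Ccl7, Ccl11, Ccl12, Ccl8 and Ccl1, the 4 tested genes rose, while Ccl12 between them had 0 counts. In the second, Ccl5 fell and its neighbour Ccl9 rose, with Ccl6, Ccl3 and Ccl4 at or near 0. On chromosome 5, Cxcl5, Cxcl15, Cxcl1 and Cxcl2 rose, with Cxcl3 in their midst at 16 counts or fewer. In a separate cluster on the same chromosome, Cxcl10 and Cxcl11 fell beside Cxcl9. On chromosome 8, Cx3cl1 rose between Ccl22, at 0 counts, and Ccl17, which had at most 11 counts in a library. Of the receptor cluster on chromosome 9, Ccr9 rose, Cxcr6 did not pass, and Ccr1, Ccr3 and Ccr2 were not tested.

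**Figure D5:**
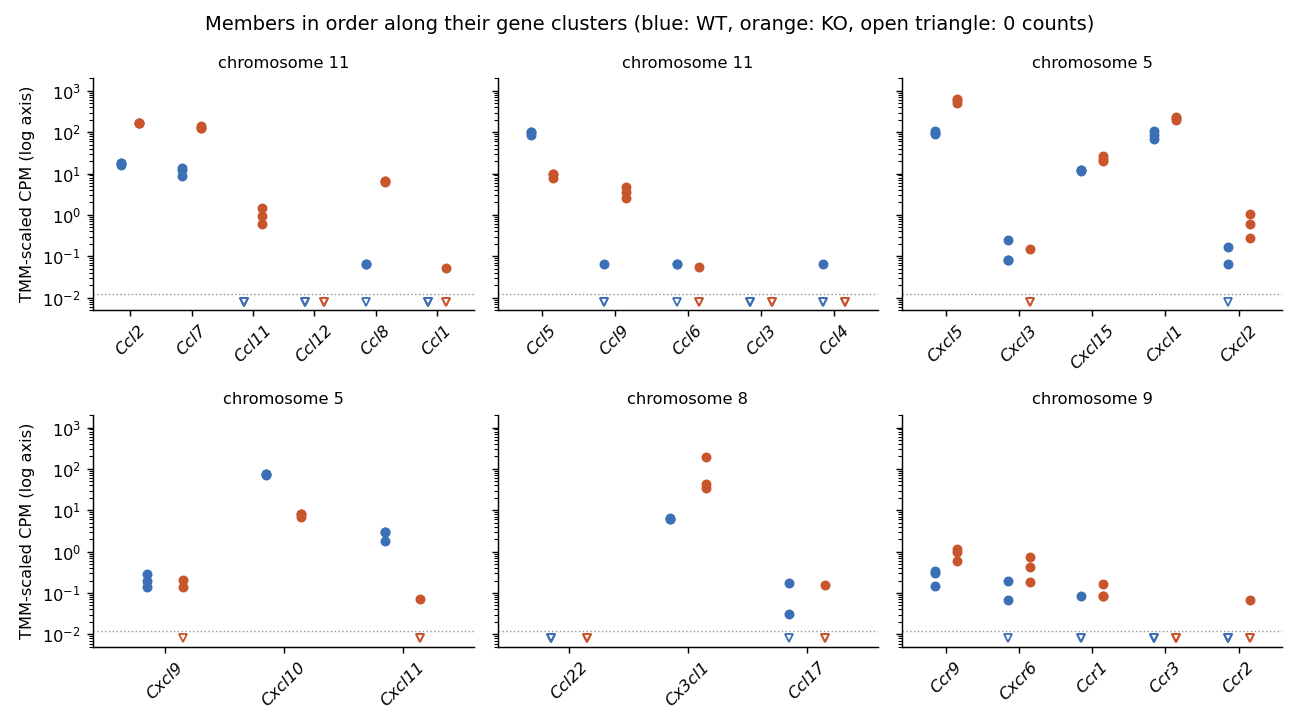
TMM-scaled CPM (log axis) of the genes of 6 clusters in their order along the chromosome, 1 point per library, WT in blue and KO in orange; open triangles are 0 counts. Ccl5 and Ccl9 on chromosome 11 lie next to each other and differ in opposite directions, 83.4 to 103 against 7.70 to 9.85 CPM for Ccl5 and at most 0.067 against 2.54 to 4.73 CPM for Ccl9 (WT against KO).

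Genes that hold, cut or relay chemokines were counted in lists, beside the 69.3% of all tested genes that were called and their median log2 fold change of 0.03. Of 20 genes that build, carry or trim heparan sulfate, 19 were tested, 12 rose and 4 fell (median log2 fold change 0.69). Sulf1 and Sulf2, which clip sulfate groups from the chains and so change what binds them, rose from 1.18 to 204 CPM and from 49.98 to 416.9 CPM. Hs6st2, a 6-O-sulfotransferase, rose from 0.423 to 168 CPM, and Sdc3, a syndecan that carries the chains, 6.28-fold. Of 13 proteases that cleave or shed chemokines, 7 were tested, 3 rose and 3 fell (median -0.07). Mmp14 rose 8.54-fold and Mmp2 from 11.2 to 2083 CPM, both matrix metalloproteinases that can trim CC and CXC ligands. The shedding enzymes of membrane-anchored ligands went in opposite directions. Adam17 rose 1.67-fold, whereas Adam10 was 2.72-fold lower (edgeR adjusted p = 0.00228). Cpd, a carboxypeptidase, was 1.52-fold lower.

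Genes downstream of the receptors were called in both directions, as were all tested genes (35.1% higher and 34.2% lower). Of 21 genes of receptor signalling, 16 were tested, 5 rose and 7 fell (median log2 fold change -0.16), or 4 and 11 with scaling by library totals only. Prex1 and Elmo1, which link G proteins to Rac and cell movement, fell from 23.4 to 0.788 CPM and from 99.1 to 5.84 CPM. Of the G protein gamma subunits, Gng2 rose 6.73-fold and Gng5 was 2.80-fold lower. Of 17 genes that switch receptors off, 14 were tested, 7 rose and 6 fell (median 0.07). Among regulators of G protein signalling, Rgs5 rose 19.4-fold, Rgs4 6.10-fold and Rgs16 from 0 counts in WT to 34.0 to 37.4 CPM in KO, at least 2183-fold. Arrb2, the arrestin that carries receptors inside, was 4.34-fold lower.

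As a list, the regulators that turn chemokine genes on or clear their mRNAs also went both ways, beside 35.1% of all tested genes called higher and 34.2% lower. Of 20 such genes, all tested, 10 rose and 6 fell (median log2 fold change 0.20). Cebpd, a transcription factor of acute inflammation, rose from 22.2 to 347 CPM, and Nfkbiz, a nuclear cofactor of NF-kB, from 33.9 to 287 CPM. Nfkbia, the inhibitor of NF-kB and itself one of its targets, rose 2.53-fold, while the subunit gene Nfkb2 was 2.99-fold lower. The subunit genes Rel, Rela and Relb were also lower (3.46-, 2.29- and 1.89-fold), and Nfkb1 was not called (edgeR adjusted p = 0.394). The mRNA decay genes of the list rose, Zfp36l1 18.1-fold, Zc3h12a 6.06-fold and Zfp36 3.01-fold. Of 8 relatives of the family whose symbols fall outside the naming pattern, 6 were tested, and only Mif, an inflammatory cytokine with chemokine-like activity, passed, 1.32-fold lower. None was called higher by edgeR (0 at an unadjusted p under 0.05) or by DESeq2 (1 at an unadjusted p under 0.05), and limma-voom called 1. Counts for the platelet chemokines were low, and Pf4 averaged 0.160 CPM in WT against 0.751 CPM in KO, with an edgeR adjusted p of 0.0789.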

How the data were processed

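Per the file headers, 1 table of the whole series gives the authors' counts and FPKM of each Ensembl gene in 6 libraries. Build GRCm39 and the tools HISAT2, SAMtools 1.3.1, edgeR and CASAVA 1.8 are listed, without their roles, per the submitters' processing notes. Counter, strand setting and annotation version were not given in the sources used here. The FPKM were normalized by the authors with lengths and totals that are not stated, and their depth is not part of the value.

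Symbols were matched by Ensembl ID for 55394 of 56393 genes (98.23%) to GENCODE M21, which is of build GRCm38 and was used only for names, gene order and overlaps. Groups and replicate numbers came from the titles. Counts were filtered with filterByExpr (minimum count 10), scaled with TMM factors and compared between KO and WT, with no covariate, by edgeR's robust quasi-likelihood test (version 4.0.16, R 4.3.3), with Benjamini-Hochberg adjustment over 18732 genes. SE is the log2 fold change divided by the root of the F statistic. A group at 0 was set to a floor of 3 counts over the group for bounds. Alternatives were DESeq2 1.42.0, limma-voom and limma on log2(FPKM + 0.1) and log2(FPKM + 1) (limma 3.58.1), library totals, other filters, 1 library left out at a time, and a replicate block. The fits were tested on simulated data with few changed genes and without genes of low WT counts. That test therefore does not cover the low genes or the large share of called genes here.

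Named were every tested member, the others by counts, and of each list up to 4 called genes with the smallest adjusted p. Elavl1 and Zmynd15 were named for their overlap, and Cxcl3, Cxcl14 and Pf4 after their values were seen. So were Adam10, Rel, Rela, Relb, Nfkb1, Zfp36, Zfp36l1, Zc3h12a, Rgs2, Rgs3, Rgs10 and Rgs19. The same holds for the markers Acta2, Smtn, Tagln, Cnn1, Lmod1, Myocd, Des, Cdh1, Wt1 and Vwf. 1 member is not reported here by name. The members and lists were chosen with earlier results of these data known.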

Additional observations from a re-analysis of the deposited data

How the results depend on the processing

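Over the 15 alternatives the number of chemokine and receptor genes called higher ranged from 12 to 17 and the number called lower from 4 to 6, with the lowest counts under a filter of 1 CPM in at least 3 libraries, which left 18 of the genes tested. No called gene changed sign. With library totals only, the median log2 fold change of all tested genes moved from 0.03 to -0.10 and 45.4% of calls were higher in place of 50.7%; the 15 higher and 6 lower genes kept their calls. Requiring 2-fold left 4055 higher and 3702 lower genes over the whole table. Ccr10, not called, turned to a log2 fold change of -0.037 with library totals only, and ran from -0.117 (without WT replicate 2) and -0.045 (without WT replicate 3) to 0.521 (without WT replicate 1) when 1 library was left out; the cause was not tested. With scaling by library totals, 11 receptor signalling genes were lower in place of 7. Among the relatives outside the naming pattern, 1 gene was called higher with limma-voom, with no filter on low counts and from both FPKM pseudocounts, and 0 to 2 higher and 1 to 2 lower when a library was left out. From log2(FPKM + 0.1) the fold of 8 of the 21 called genes moved by over 1.5 times, and of 11 from log2(FPKM + 1), since the pseudocount shrinks low values. Depth limits the 8 tested genes under 1 CPM in both genotypes and the 32 not tested. The replicate numbers did not pair the libraries: deviations of same-numbered libraries correlated at -0.02, 0.02 and -0.01 across genes. With the replicate number as a block, 15 chemokine and receptor genes were higher and 6 lower, and all 21 calls remained; of all genes, 6214 were higher and 6019 lower.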
